A study of Caenorhabditis elegans with 6 samples.

Results

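The furrow cuticle collagens of Caenorhabditis elegans are the genes dpy-2, dpy-3, dpy-7, dpy-8, dpy-9 and dpy-10. They were taken by gene symbol from a table of ribosome footprint counts, and all 6 were found among its 20189 genes. In ribosome profiling only the mRNA pieces covered by ribosomes are sequenced, and the reads of a gene count its footprints. A footprint count reflects both the amount of mRNA and how densely it is translated, which cannot be told apart here. The 6 libraries came from whole hermaphrodites at the fourth larval stage (L4) that carried rpl-36A(P55Q) over mIn1 and were kept at 23 °C. In the CHX group, 3 libraries came from animals raised from synchronized eggs for 3 days on plates with 500 µg/ml of cycloheximide (CHX), an inhibitor of translation elongation. For the no CHX group, 3 libraries came from animals grown likewise for 2 days on plates without the drug. Both groups carry the same mutation in a large-subunit ribosomal protein, changes of which are known to make ribosomes resistant to CHX. Culture time went with the drug, so the effects of drug and time cannot be told apart. The mIn1 balancer, a rearranged chromosome II, is commonly kept with a recessive dpy-10 allele. The labels do not say whether that allele was present here, and counts per gene do not tell the copies of dpy-10 apart.

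The cuticle of the worm is a collagen matrix that the epidermis secretes anew before each molt, and circular furrows divide its surface into ridges called annuli. The 6 furrow collagens are needed together: loss of any of them removes the furrows and leaves short, fat (dumpy) animals. In each molting cycle most of them are known to be transcribed early, before other cuticle collagens such as dpy-5 and dpy-13. Loss of the furrows is also known to switch on epidermal stress genes, among them osmotic and antimicrobial ones. Among the members, dpy-7 is known for its promoter, a common driver of epidermal transgenes, and dpy-10 for dominant alleles that make worms roll and serve as markers in genome editing.

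The libraries held 1601009 to 1901815 reads in the CHX group and 1639682 to 1842865 in the no CHX group, and nothing in the labels says whether replicates were separate cultures, so the spread behind every p-value may be technical. Listed markers of the tissues of a whole worm (epidermis, intestine, body wall muscle, pharynx, neurons and germline, 26 genes in all) were all detected. Of 10632 genes that passed the filter on low counts, 42.2% differed between the groups at an adjusted p under 0.05 (edgeR's quasi-likelihood test), 22.2% higher and 20% lower with CHX, and the median log2 fold change was 0.03.

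The furrow collagens were weakly occupied at this stage. They held 756 of 10512132 reads, 531 with CHX and 225 without it. Their levels are given as CPM, reads scaled to a common library size (counts per 1e6 after TMM scaling, which corrects for composition). Divided by each gene's span on the genome, which includes introns, the mean levels of the members ran from 5.47 (dpy-10) to 16.2 (dpy-2) CPM per kb with CHX and from 1.66 (dpy-10) to 7.96 (dpy-8) CPM per kb without it. On the same scale 15 other body-shape collagens of the cuticle had a median of 217 CPM per kb with CHX and 349.7 CPM per kb without it. Of those, dpy-14 and dpy-17 were as low as the members, at 5.27 and 7.23 CPM per kb with CHX. Within the family and with CHX, dpy-2 (16.2 ± 6.56), dpy-8 (16.1 ± 5.58) and dpy-3 (13.5 ± 6.55) stood at the top of the order. The genes dpy-7 (6.54 ± 6.34), dpy-9 (6.28 ± 2.80) and dpy-10 (5.47 ± 2.85 CPM per kb; SD, n = 3) stood at the bottom, and no neighbours within either set differed by more than their spread. Without CHX the order was dpy-8, dpy-2, dpy-3, dpy-7, dpy-9 and dpy-10, again with steps smaller than the spread.

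All 6 genes are short. Their spans run from 1043 to 1821 bases, below the median of 1950 bases over all genes of the table. On WBcel235, dpy-2 (WBGene00001064, chromosome II, 6714292 to 6715971, plus strand) and dpy-10 (WBGene00001072, chromosome II, 6710156 to 6711866, minus strand) lie 2425 bases apart and point away from each other. The genes dpy-3 (WBGene00001065, 2144605 to 2145647), dpy-7 (WBGene00001069, 7536417 to 7537792) and dpy-8 (WBGene00001070, 5148804 to 5150476) lie on the minus strand of chromosome X. The sixth, dpy-9 (WBGene00001071), lies on the minus strand of chromosome IV from 257384 to 259204. Another gene overlaps the span of 2 members. The last 88 bases of dpy-8 lie over C31H2.14 on the opposite strand, which had 19 reads with CHX and 24 without, and 439 bases of dpy-10 lie over T14B4.19 on the same strand, which had 5 and 3 reads. The sources used here do not say how reads over such shared bases were assigned.

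With CHX, the mean footprint level of each of the 6 furrow collagens was higher than without it, but the libraries of a group differed so much that 1 member, dpy-8, passed the test. Of 5 members that passed the filter on low counts, 1 rose and 0 fell, against 42.2% of all tested genes called in either direction and 22.2% called higher. For none of the 6 did the groups separate, while the groups did not overlap in 52.5% of tested genes (27.7% higher and 24.7% lower with CHX). The member dpy-10 fell below the filter and was not tested with the rest. DESeq2 (15.6% of all genes higher) and limma-voom (22%) also called 1 member higher. With no filter on low counts 4 members were called, against 15.7% of all genes. Leaving out CHX replicate 2 gave 3 called members (dpy-8, dpy-9 and dpy-10), against 18.4% of all genes called higher. In that fit dpy-10 passed the filter only through CHX replicates 1 and 3 (22 and 23 reads). That is the group where it was high, so its call there is no support for a rise. Leaving out no CHX replicate 2 gave 2 called members (dpy-2 and dpy-8), against 17.3%. Leaving out CHX replicate 1 (19.9%), CHX replicate 3 (19%), no CHX replicate 1 (17.6%) or no CHX replicate 3 (19.3%) gave 0.

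The one that passed, dpy-8, had 35.2, 16.8 and 28.8 CPM in CHX replicates 1 to 3 (63, 27 and 55 reads), against 7.61, 18.3 and 14.03 CPM in no CHX replicates 1 to 3 (12, 32 and 25 reads). The means were 26.9 ± 9.34 CPM with CHX and 13.3 ± 5.38 CPM without it (SD, n = 3 each). This was a log2 fold change of 1.01 (SE 0.317, 95% interval 0.33 to 1.69, edgeR adjusted p = 0.0206). CHX replicate 2 lay below no CHX replicate 2, so the groups overlapped. The call ended when any 1 of 4 libraries was left out: CHX replicate 1 (log2 fold change 0.78, edgeR adjusted p = 0.0784), CHX replicate 3 (0.97, edgeR adjusted p = 0.0595), no CHX replicate 1 (0.71, edgeR adjusted p = 0.0809) or no CHX replicate 3 (1.002, edgeR adjusted p = 0.0732).

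The neighbouring pair on chromosome II showed wider swings. The gene dpy-2 had 37.4, 15.6 and 28.8 CPM in CHX replicates 1 to 3, against 3.17, 25.7 and 7.30 CPM in no CHX replicates 1 to 3. No CHX replicate 2 alone stood above CHX replicate 2, and without it dpy-2 would have been called (log2 fold change 2.30, edgeR adjusted p = 0.0040). With all libraries the log2 fold change was 1.16 (SE 0.725, 95% interval -0.71 to 3.03, edgeR adjusted p = 0.267). The gene dpy-10 had 12.3, 3.74 and 12.04 CPM in CHX replicates 1 to 3, against 0, 4.57 and 3.93 CPM in no CHX replicates 1 to 3. No read of dpy-10 was seen in no CHX replicate 1, where a count of 0 allows up to 3 reads, and CHX replicate 2 again lay among the no CHX libraries. In a fit on genes with a mean of at least 5 CPM, which admits dpy-10, its log2 fold change was 1.68 (edgeR adjusted p = 0.0631). Its mean was 9.36 CPM with CHX and 2.83 CPM without it. It thus entered that fit only through the group where it was high, and the value is no support for a rise.

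The X-linked dpy-3 had 15.1, 6.85 and 20.4 CPM in CHX replicates 1 to 3, against 0.634, 9.15 and 8.42 CPM in no CHX replicates 1 to 3. It had the highest level in CHX replicate 3, the only member to do so, and a single read in no CHX replicate 1. Its log2 fold change was 1.20 (SE 0.625, 95% interval -0.26 to 2.66, edgeR adjusted p = 0.168). The gene dpy-9 had 15.1, 5.60 and 13.6 CPM in CHX replicates 1 to 3, against 0, 5.72 and 6.17 CPM in no CHX replicates 1 to 3. CHX replicate 2 sat just under no CHX replicates 2 and 3. Its log2 fold change was 1.49 (SE 0.65, 95% interval 0.0011 to 2.98, edgeR adjusted p = 0.1001), and it was called without CHX replicate 2 (1.79, edgeR adjusted p = 0.0345).

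The gene dpy-7 had the smallest fold change of the 5 tested members and the widest interval. Its levels were 18.4, 1.25 and 7.33 CPM in CHX replicates 1 to 3, against 1.903, 8.002 and 4.49 CPM in no CHX replicates 1 to 3. It was the only member with its lowest level in a CHX library: 2 reads in CHX replicate 2, beside 33 and 14 in CHX replicates 1 and 3. Its log2 fold change of 0.90 (SE 0.886, 95% interval -1.27 to 3.08, edgeR adjusted p = 0.469) turned to -0.11 without CHX replicate 1 (edgeR adjusted p = 0.915).

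**Figure D1:**
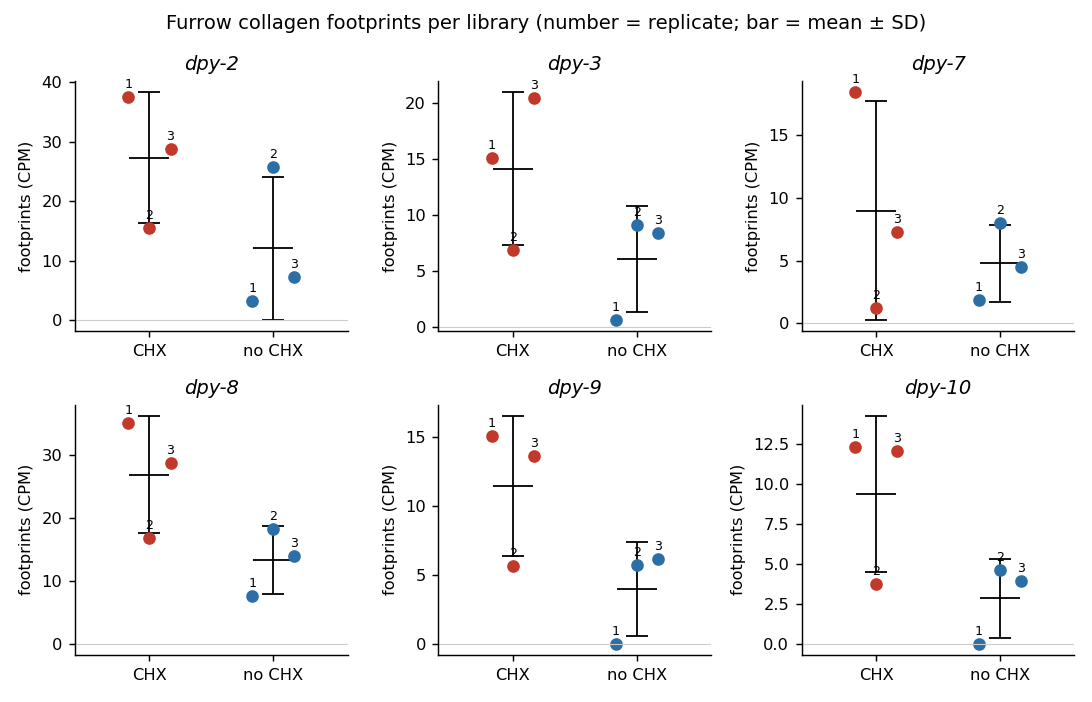
Footprint level in CPM (y axis) of each furrow collagen in the CHX libraries (red, left) and the no CHX libraries (blue, right). Each point is a library numbered by its replicate, and the bar is the mean ± SD of 3. In every panel CHX replicate 2 lies below the highest no CHX library, and no CHX replicate 1 is lowest in all panels but that of dpy-7.

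**Figure D2:**
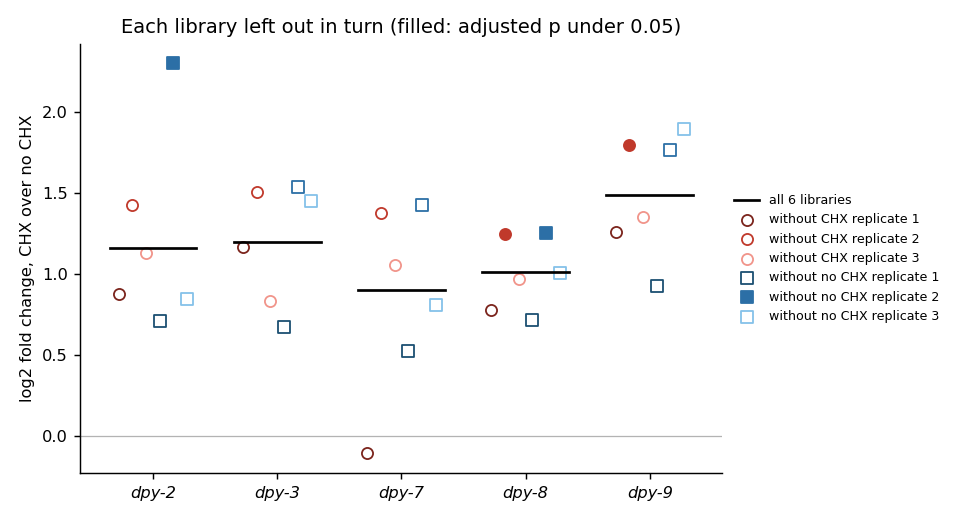
Log2 fold change of CHX over no CHX (y axis) for the 5 tested members, with all 6 libraries (black line) and with each library left out (circles: a CHX library, squares: a no CHX library; filled where the adjusted p is under 0.05). The points of dpy-7 reach below 0 without CHX replicate 1, and dpy-2 has its highest value, 2.30, without no CHX replicate 2.

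The libraries ranked much alike for the 6 members. CHX replicate 1 was the highest library for 5 of 6 members and among the top 2 for all 6, and CHX replicate 3 was among the top 2 for 5. No CHX replicate 1 was the lowest for 5 and among the bottom 2 for all 6, and CHX replicate 2 was among the bottom 2 for 4. Over the 15 pairs of members, Pearson's r of log2 CPM over the 6 libraries had a median of 0.91 and ran from 0.67 to 0.99, in libraries that share their depth and scaling.

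Summed, the family had 239, 80 and 212 reads in CHX replicates 1 to 3 (95% Poisson intervals 209.7 to 271, 63.4 to 99.6 and 184 to 242.5). It had 21, 125 and 79 reads in no CHX replicates 1 to 3 (12.999 to 32.1, 104 to 149 and 62.5 to 98.5). These intervals cover counting error only, and within each group the lowest library lies outside the intervals of the highest. On the CPM scale the sum spanned 2.68-fold among CHX libraries and 5.36-fold among no CHX libraries. As a share of all reads, the family took 0.00996% ± 0.00449 with CHX and 0.00419% ± 0.00286 without it (SD, n = 3 each), 2.38 times as much with CHX. That difference did not exceed the spread of the libraries (two-sided exact permutation test, p = 0.2, where 0.1 is the smallest p that 3 against 3 allows). The ratio was 3.58 when no CHX replicate 2 was left out and 1.77 when no CHX replicate 1 was.

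Such spread was uncommon among genes of like level. The SD of log2 CPM within groups was 1.04 for dpy-2, 1.14 for dpy-3, 1.22 for dpy-7 and 1.18 for dpy-9, and 0.56 for dpy-8. Among 3121 other genes with mean levels of 6.90 to 20.1 CPM the median was 0.31 and the 90th percentile 0.51. The biological coefficient of variation that edgeR assigned was 64.2% for dpy-2, 50.8% for dpy-3, 70.8% for dpy-7, 45.5% for dpy-9 and 21.0% for dpy-8, against a median of 12.4% for those other genes. Some genes of the apical matrix laid down around each molt, at higher levels, were also widely spread. Their coefficient was 58.8% for lpr-3, 49.6% for sym-1, 42.1% for mlt-11, 41.0% for noah-1 and 35.2% for noah-2. For the other tested genes of that matrix it ran from 10.3% (bli-5) to 31.3% (mlt-10).

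Within the family, dpy-2 and dpy-8 together gave most of the reads. With CHX, dpy-8 gave 28.7% ± 4.39 and dpy-2 28.4% ± 2.67 of the family's reads, and without CHX they gave 38.1% ± 16.7 and 25.4% ± 9.87 (SD, n = 3 each). The share of dpy-7 was 13.8%, 2.5% and 6.60% in CHX replicates 1 to 3, against 14.3%, 11.2% and 10.1% in no CHX replicates 1 to 3. No share differed beyond the spread of libraries (two-sided exact permutation tests over the 6 members, p = 0.2 to 0.7 before any adjustment). The 21 reads of no CHX replicate 1 leave its shares imprecise.

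Of 13 body-shape collagens tested outside the furrow set, 5 fell with CHX and 0 rose (20% of all tested genes were called lower), and their median log2 fold change was -0.62, against a median of 1.16 for the 5 tested furrow genes and 0.03 over all genes. The fallers were bli-6 (log2 fold change -0.70), rol-1 (-0.77), dpy-4 (-0.69), dpy-5 (-0.60) and dpy-13 (-0.62), the last 2 of the class known to be transcribed after the furrow genes in a molt. The gene dpy-4 had 1391, 951 and 1043 CPM in CHX replicates 1 to 3, against 1744, 1752 and 1969 CPM in no CHX replicates 1 to 3. Its groups did not overlap. The other blister (bli) collagen genes of the list, bli-1 (0.62, edgeR adjusted p = 0.299) and bli-2 (0.22, edgeR adjusted p = 0.660), did not pass.

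Set against these collagens, the furrow genes held a larger share with CHX. Of the reads of furrow and other body-shape collagens together, the furrow genes had 1.44%, 0.777% and 1.82% in CHX replicates 1 to 3 (exact binomial 95% intervals 1.26 to 1.63, 0.616 to 0.966 and 1.58 to 2.08). They had 0.132%, 0.645% and 0.385% in no CHX replicates 1 to 3 (0.0816 to 0.201, 0.538 to 0.769 and 0.305 to 0.479). Every CHX library lay above every no CHX library, although the intervals of CHX replicate 2 and no CHX replicate 2 overlapped. The means were 1.34% ± 0.527 with CHX and 0.387% ± 0.257 without it (SD, n = 3 each), a difference of 0.956 percentage points (two-sided exact permutation test, p = 0.1, the smallest this design allows). The share rests on both parts: the other collagens took 0.728% ± 0.187 of all reads with CHX and 1.05% ± 0.0732 without it. The other collagens summed to 10090, 10998 and 11484 CPM in no CHX replicates 1 to 3, close together where the furrow genes spanned 5.36-fold. CHX replicate 3, with the highest furrow share, had the lowest level of the other collagens, 5991 CPM in sum against 6364 in CHX replicate 2 and 9166 in CHX replicate 1.

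**Figure D3:**
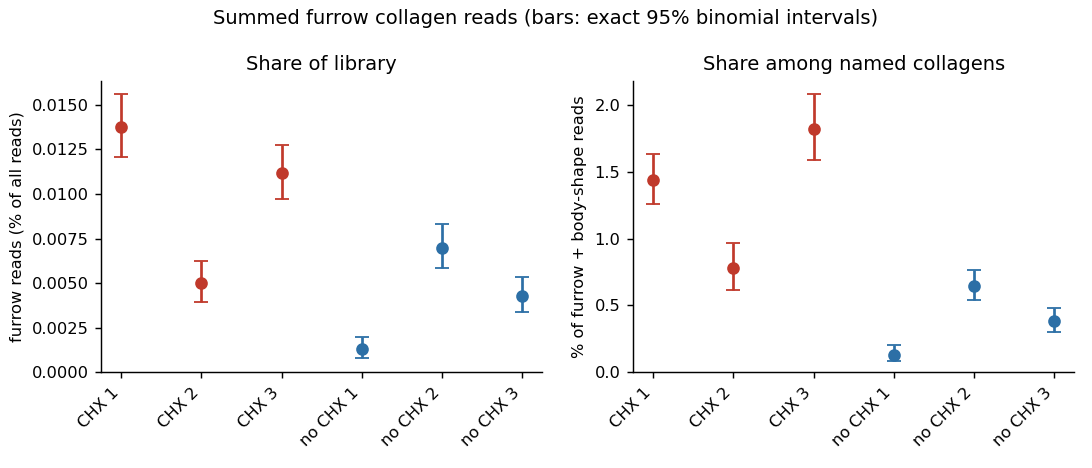
Summed reads of the 6 furrow collagens per library, as a percent of all reads (left) and of the reads of furrow and 15 other body-shape collagens together (right), with exact 95% binomial intervals; CHX libraries are red and no CHX libraries blue. On the left the groups overlap, and on the right the lowest CHX library (0.777%) lies above the highest no CHX library (0.645%).

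**Figure D4:**
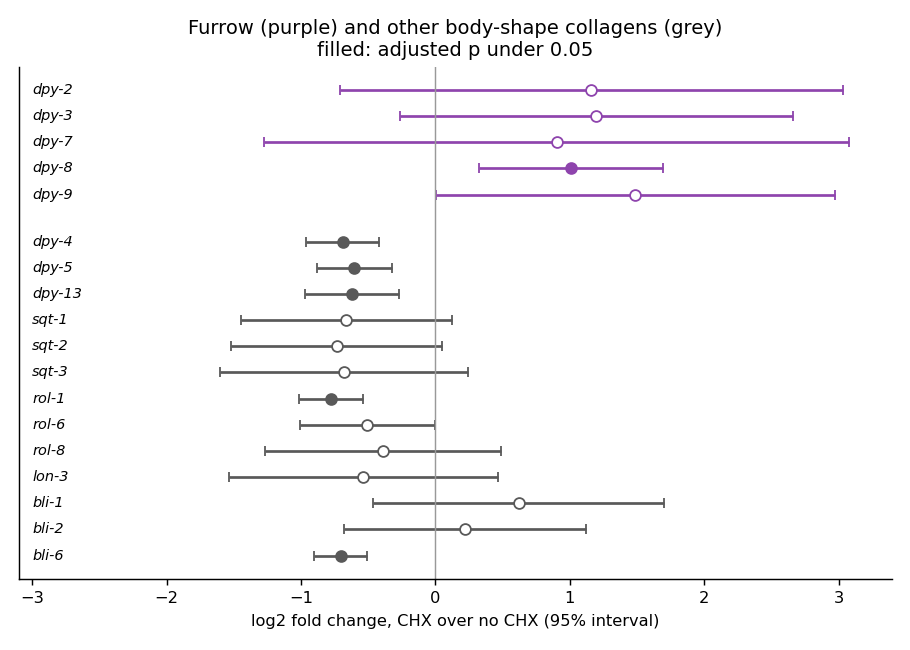
Log2 fold change of CHX over no CHX (x axis) with its 95% interval from edgeR for the 5 tested furrow collagens (purple) and 13 other body-shape collagens (grey), filled where the adjusted p is under 0.05. The furrow genes lie between 0.90 and 1.49 with wide intervals, and 11 of the 13 other genes lie below 0.

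Of 12 tested genes of the apical matrix that is laid down around each molt, 3 rose and 1 fell with CHX. Of all tested genes, 22.2% were called higher and 20% lower. Their median log2 fold change was 0.85, against 0.03 over all genes. The risers were fbn-1, for a fibrillin-related protein (2.16, edgeR adjusted p = 3.6e-04), let-653, for a mucin-like protein of the precuticle (2.04, edgeR adjusted p = 1.3e-04), and let-4, for a leucine-rich repeat protein (1.19, edgeR adjusted p = 0.0067). The faller was dex-1 (-0.66, edgeR adjusted p = 0.0214), whose call ended without CHX replicate 1, CHX replicate 2 or no CHX replicate 1. The gene fbn-1 had 15.6, 11.2 and 23.0 CPM in CHX replicates 1 to 3, against 1.27, 4.57 and 5.05 CPM in no CHX replicates 1 to 3, and its groups did not overlap. Its lowest library was no CHX replicate 1 and its lowest with CHX was replicate 2, as for the furrow sum. The gene let-653 had 18.998, 18.7 and 11.5 CPM in CHX replicates 1 to 3, against 3.81, 4.57 and 3.37 CPM in no CHX replicates 1 to 3, so each group had its lowest value in replicate 3.

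Among 9080 genes with a mean of at least 10 CPM, the 5 whose log2 CPM followed the mean of the furrow members most closely over the 6 libraries were Y60A3A.8 (Pearson's r 0.979), K02E10.4 (0.978), sym-1 (0.978), rbmx-2 (0.975) and F21G4.1 (0.972). Over so few libraries such values are a description only. Most of them swung little, from 1.64-fold (F21G4.1) to 3.96-fold (K02E10.4) between the highest and the lowest library, but sym-1 spanned 9.69-fold, close to the 10.03-fold of the summed furrow genes. The gene sym-1, for a secreted leucine-rich repeat protein of the matrix, had 98.3, 46.7 and 76.9 CPM in CHX replicates 1 to 3, against 10.1, 43.4 and 39.3 CPM in no CHX replicates 1 to 3. Its groups did not overlap, but it was not called (1.24, edgeR adjusted p = 0.141). The lipocalin gene lpr-3, which stood seventh (0.971) and was picked after its values were seen, spanned 10.98-fold, with 90.5, 39.2 and 62.3 CPM in CHX replicates 1 to 3, against 8.25, 45.7 and 43.8 CPM in no CHX replicates 1 to 3, and its groups overlapped. Like the furrow sum, both were lowest in no CHX replicate 1 and highest in CHX replicate 1, a match that follows from how they were chosen. Of the other tested matrix genes, which were not chosen by likeness, mlt-11, noah-1, noah-2 and let-4 had the same lowest and highest libraries. The rest, mlt-8, mlt-10, fbn-1, let-653, dex-1 and bli-5, did not.

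**Figure D5:**
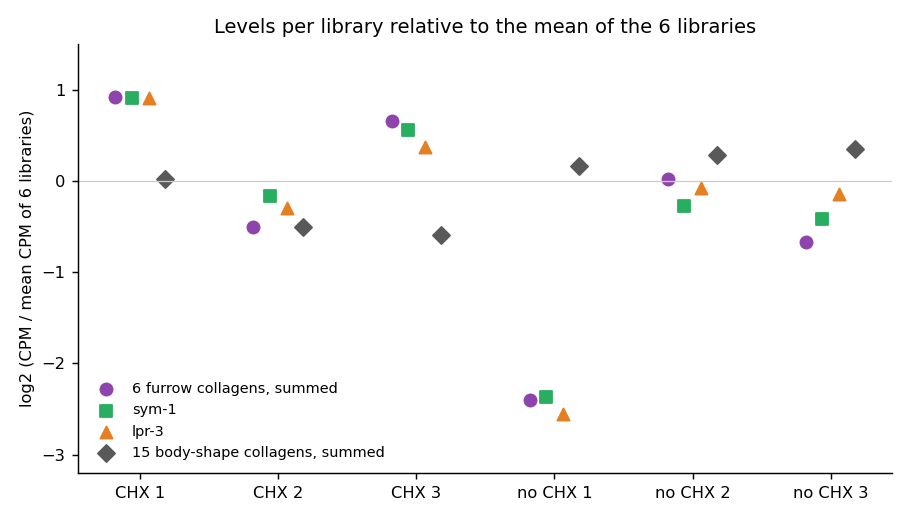
Level of the summed furrow collagens, of the matrix genes sym-1 and lpr-3 and of the 15 other body-shape collagens in each library, as log2 of CPM over its mean across the 6 libraries (y axis). The furrow sum, sym-1 and lpr-3 are lowest in no CHX replicate 1 and highest in CHX replicate 1, while the other collagens are higher in every no CHX library than in any CHX library.

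Of 12 tested regulators of molt timing, 1 rose, 2 fell and 9 did not pass, where 42.2% of all tested genes were called. The median log2 fold change was 0.19. The nuclear receptor gene nhr-23, which is needed for molting, fell to 8.94, 9.34 and 11.5 CPM in CHX replicates 1 to 3, against 25.4, 16.0 and 18.5 CPM in no CHX replicates 1 to 3 (-0.99, edgeR adjusted p = 0.0063). The groups did not overlap, and nhr-23 was highest in no CHX replicate 1, the library with the fewest furrow reads. The zinc finger factor gene blmp-1 fell (-0.47, edgeR adjusted p = 0.0490) and the Grainyhead gene grh-1 rose (0.57, edgeR adjusted p = 0.0422), and both calls ended without no CHX replicate 1, among other libraries. The molting cycle gene lin-42, a relative of the clock gene period, did not pass (0.12, edgeR adjusted p = 0.739).

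Of 12 tested genes that process and secrete collagen, 2 rose and 4 fell, beside 22.2% higher and 20% lower among all tested genes. The median log2 fold change was -0.06. The prolyl 4-hydroxylase gene dpy-18, whose enzyme modifies collagen chains in the endoplasmic reticulum, fell to 403, 313 and 298 CPM in CHX replicates 1 to 3, against 551, 678 and 758 CPM in no CHX replicates 1 to 3 (-0.97, edgeR adjusted p = 1.1e-04). Its groups did not overlap. The collagen secretion gene tmem-131 also fell (-0.46, edgeR adjusted p = 0.0104), while dpy-31, for the astacin protease that trims procollagen, rose (0.49, edgeR adjusted p = 0.0119). The other riser was the tetraspanin gene tsp-15 (0.77, edgeR adjusted p = 0.0272), and the other fallers were the prolyl 4-hydroxylase gene phy-2 (-0.51, edgeR adjusted p = 0.0322) and the thioredoxin-like gene dpy-11 (-0.42, edgeR adjusted p = 0.0436). The calls of tsp-15 and phy-2 each ended in 4 of the 6 fits that left out a library. That of dpy-11 ended without CHX replicate 2, CHX replicate 3, no CHX replicate 2 or no CHX replicate 3. The call of tmem-131 ended without CHX replicate 3, and that of dpy-31 without CHX replicate 2 or no CHX replicate 2.

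Of 14 listed genes known to respond to furrow loss, or to hold that response back, 1 had no read. Of 13 tested, 3 rose and 3 fell, close to the 22.2% and 20% of all tested genes, with a median log2 fold change of 0.34. The glycerol synthesis gene gpdh-1 fell to 17.9, 10.6 and 8.90 CPM in CHX replicates 1 to 3, against 53.9, 92.6 and 67.4 CPM in no CHX replicates 1 to 3 (-2.52, edgeR adjusted p = 1.4e-05). The inositol transporter gene hmit-1.1 (-0.76) and the detoxification gene gst-4 (-1.36) fell as well. The antimicrobial peptide genes nlp-28 (2.81) and nlp-27 (1.24) rose, as did osm-11 (0.72), for a secreted protein whose loss is known to raise gpdh-1. The best known antimicrobial reporter of furrow damage, nlp-29, did not pass (0.64, edgeR adjusted p = 0.356). Among its no CHX libraries, replicate 3 reached 124.6 CPM, while replicates 1 and 2 stood at 41.2 and 45.7 CPM. Its CHX libraries lay between these, from 102 to 119 CPM. No CHX replicate 3 was also the highest library for nlp-30, nlp-31, nlp-34, cnc-2 and cnc-4. Without that library 7 of the list rose, against 19.3% of all genes called higher. Each other fit that left out a library gave 3 risers.

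In whole animals, fewer epidermal cells and less RNA per cell cannot be told apart. The marker counts below stand beside 22.2% of all tested genes called higher, 20% called lower and 52.5% with groups that did not overlap. Of 5 epidermal markers outside the collagens, 1 rose (sta-2, log2 fold change 2.03) and 0 fell. All 5 had reads, and their summed level was 347 to 411 CPM with CHX and 297 to 335.5 CPM without it. Most of that sum came from ajm-1, at 307, 250 and 291 CPM in CHX replicates 1 to 3, against 238, 279 and 223 CPM in no CHX replicates 1 to 3. The groups overlapped for ajm-1, lin-26 and che-14 and were apart for sta-2 and elt-3. The log2 fold change of che-14 was -0.35, and those of the other 4 were positive. The 4 germline markers (1 higher, 3 lower) summed to 998.5 to 1095 CPM with CHX and 1546 to 1605 CPM without it. The 5 intestinal markers (0 higher, 3 lower) summed to 1991 to 2417 CPM with CHX and 2497 to 2852 CPM without it. The 4 body wall muscle markers (0 higher, 2 lower) summed to 6585 to 7531 CPM with CHX and 8714 to 9686 CPM without it. Pharyngeal markers (2 of 3 higher) summed to 334 to 429 CPM with CHX and 223 to 289 CPM without it, and neuronal markers (2 of 5 higher) to 276 to 302 CPM with CHX and 201 to 257 CPM without it. In all 6 tissues the ranges of the groups were apart, and the part of such shifts in the collagen values was not tested.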

How the data were processed

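Deposited were unnormalized footprint counts for 20189 genes with their positions; WBcel235 and DESeq2 are named in the submitters' processing notes. For the aligner, strand and treatment of multiply matched reads, the sources used here give nothing. The table's length column equals the genomic span.

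Counts were filtered with edgeR's filterByExpr (minimum count 10), given TMM factors, and compared, CHX over no CHX, by the robust quasi-likelihood test of edgeR 4.0.16 in R 4.3.3, with no covariate. Genes with a Benjamini-Hochberg adjusted p under 0.05 over all 10632 were called. Log2 CPM used a prior count of 2. The script was tested on simulated data. Alternatives included DESeq2 1.42.0 and limma-voom (limma 3.58.1). The members and lists were chosen with earlier results of these data known. Named were the members, up to 3 called genes per list and direction (or all of a count of 5 or fewer) and the 5 genes most like the members. Other genes given with values, such as lpr-3, nlp-29, lin-42 and bli-1, were chosen after their values were seen. No sequence was used.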

Additional observations from a re-analysis of the deposited data

How the results depend on the processing

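The direction of the 6 furrow genes (higher with CHX) held in the alternative scalings, filters, tests and left-out libraries in which they were fitted. The exception was dpy-7 without CHX replicate 1 (log2 fold change -0.11). The gene dpy-10 was fitted in only 6 settings and fell below the filter on low counts in the others. Apart from the fit with no filter, it entered these only through its CHX libraries, so its direction there is no support for a rise. Calls were less stable. With no filter on low counts, 4 members rose, among them dpy-3 (1.18), dpy-9 (1.47) and dpy-10 (1.66), 2 body-shape collagens (dpy-14 and dpy-17) and 0 molt timing regulators rose, and 2 molt matrix genes fell. With the replicate number as a block, 0 members rose (dpy-8 0.99, edgeR adjusted p = 0.0742), 1 collagen maturation gene rose, and 0 molt timing regulators rose and 1 fell. The numbers pair no samples: same-numbered libraries had correlations of deviations of -0.11, -0.080 and -0.084, and none correlated best with its own number. With DESeq2, 0 collagen maturation genes and 0 molt timing regulators rose, 1 timing regulator fell and 2 molt matrix genes fell; limma-voom also gave 2 such fallers, and DESeq2's size factors in edgeR gave 2 with 0 risen regulators, as upper-quartile factors gave 0. Without the 100 most abundant genes, which hold 4 body-shape collagens, 1 of that list fell. Leaving out each library in turn gave log2 fold changes of 0.71 to 2.30 (dpy-2), 0.67 to 1.54 (dpy-3), -0.11 to 1.42 (dpy-7), 0.71 to 1.25 (dpy-8) and 0.92 to 1.89 (dpy-9). For dpy-10 the range was 1.12 to 2.11. It lacks the fits without CHX replicate 1 or 3, the highest libraries of dpy-10, where the gene fell below the filter. In each left-out-library fit that it entered, dpy-10 passed the filter only through CHX replicates 1 and 3, the group where it was high. Neither its range nor its call without CHX replicate 2 is support for a rise. Leaving out each library gave 0 to 3 risen members, with dpy-10 counted. It gave 0 to 2 risers and 4 to 11 fallers among body-shape collagens (11 without CHX replicate 1), 0 to 2 and 1 to 4 in collagen maturation, 0 to 1 and 1 to 3 among timing regulators, 3 to 3 and 0 to 2 in the molt matrix, 3 to 7 risers in the furrow loss list and 1 to 2 among 3 adult collagens. In the fits with 2 risen body-shape collagens, dpy-14 and dpy-17 passed the filter only through CHX replicates 1 and 2. A call of either there is no support for a rise. With 756 reads in all, the members lie where counting error is large.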

Other observations

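A pair of low body-shape collagens outside the furrow set were also higher with CHX. The gene dpy-14 had 16, 19 and 7 reads in CHX replicates 1 to 3 and 0 reads in each no CHX library. Against a floor of 3 reads over the no CHX group, the ratio of normalized sums was 13.5, with no allowance for counting error in the CHX reads. The gene dpy-17 had 20, 16 and 8 reads in CHX replicates 1 to 3, against 0, 3 and 4 reads in no CHX replicates 1 to 3, a ratio of 6.05 in normalized sums (95% counting interval 2.70 to 15.9). Both were below the filter on low counts and were named after their values were seen. Unlike the furrow genes, both were lowest among CHX libraries in replicate 3.

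Of 3 adult-stage collagens, 1 rose, where 22.2% of all tested genes did. It was col-19, at 998 ± 196 CPM with CHX against 616.5 ± 91.8 CPM without it (n = 3 each, ± SD; edgeR log2 fold change 0.70, adjusted p = 0.0034); 0 fell. In this gene CHX replicate 1, the library with the most furrow reads, was the lowest of the CHX libraries.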
